A study of Rattus norvegicus with 4 samples.

Results

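The 33 genes described here are those of cholesterol and fatty acid synthesis: 18 that make sterols from acetyl-CoA, 6 that control this synthesis or carry its product, and 9 that make, elongate or desaturate fatty acids. They were chosen by name. All 33 were found on the array by the RefSeq accessions of its probes, by 46 probes and 111 spots, among 16581 named genes. RNA came from NR8383 cells, a macrophage line established from lung lavage of a normal rat, described as being at 20 passages. All samples received amino-functionalized carbon nanotubes, named NRCWE049, at 1.2 cm2/cm2 for 4 h, after 48 h in culture. They form 1 group of 4 biological replicates, each on 1 array of 1 slide. The series compares exposed with unexposed cells; the unexposed cells were not analysed here, so no value below shows an effect of the nanotubes. The position of an array on the slide and the replicate cannot be told apart.

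Cells make cholesterol from acetyl-CoA through mevalonate, farnesyl diphosphate, squalene and lanosterol. The enzymes are controlled together: when sterols are scarce in the endoplasmic reticulum, SCAP carries the SREBP precursors to the Golgi, where they are cut and freed to enter the nucleus, and INSIG proteins hold SCAP back when sterols are plentiful. SREBP-2, from Srebf2, acts mainly on the sterol genes, and SREBP-1, from Srebf1, mainly on the fatty acid genes. Macrophages take in much lipid with the cells and particles they engulf, and lung macrophages also clear surfactant, so their own synthesis runs beside a large supply from outside.

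Factor NF-Y, which binds the letters CCAAT, is known to act beside SREBPs at promoters of sterol genes. RefSeq promoter windows of the GRCr8 assembly, 250 bases before to 50 after the start of transcription, were given for 26 of the 33 genes. The windows of 20 of the 26 (76.9%) held CCAAT on either strand. The share was 39.6% of the 7294 genes detected in these cells that have a window, and 39.6% of all 27457 genes with a window. A gene counted where any of its windows held the letters. Several copies stood in 12 of the 26 (46.2%), against 15.1% of the detected genes with a window. The branches were 12 of 15 with a copy for sterol genes, 4 of 5 for control genes and 4 of 6 for fatty acid genes. The letters GGGCGG, a GC box, stood in 21 of the 26 (80.8%) and in 62.1% of the detected genes with a window. No window of the 26 held TCACNCCAC, the core of a sterol regulatory element, against 1.25% of all genes with a window. This says only that these letters are not in these windows. All 3 motifs were read on both strands, and matches of different motifs were counted also where they overlapped. The 200 bases before the start are shown for 3 sterol genes, 1 control gene and 2 fatty acid genes, Mvk for its number of copies and the others for their place in the results below. CCAAT, or ATTGG where it lies on the other strand, is in capitals.
Mvk, GRCr8 chr12:47819504-47819703, minus strand: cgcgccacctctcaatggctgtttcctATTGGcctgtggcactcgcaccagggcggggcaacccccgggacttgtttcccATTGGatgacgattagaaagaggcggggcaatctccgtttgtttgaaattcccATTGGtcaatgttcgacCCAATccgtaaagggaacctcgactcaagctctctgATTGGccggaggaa
Hmgcs1, GRCr8 chr2:53382104-53382303, plus strand: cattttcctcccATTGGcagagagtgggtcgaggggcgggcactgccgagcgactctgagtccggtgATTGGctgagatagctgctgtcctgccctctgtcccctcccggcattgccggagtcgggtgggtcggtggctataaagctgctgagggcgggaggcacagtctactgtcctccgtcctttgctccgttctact
Msmo1, GRCr8 chr16:29746913-29747112, plus strand: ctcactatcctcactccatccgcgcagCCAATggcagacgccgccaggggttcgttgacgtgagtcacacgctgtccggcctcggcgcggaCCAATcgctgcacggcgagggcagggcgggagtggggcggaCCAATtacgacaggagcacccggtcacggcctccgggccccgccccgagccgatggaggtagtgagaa
Insig1, GRCr8 chr4:8057770-8057969, minus strand: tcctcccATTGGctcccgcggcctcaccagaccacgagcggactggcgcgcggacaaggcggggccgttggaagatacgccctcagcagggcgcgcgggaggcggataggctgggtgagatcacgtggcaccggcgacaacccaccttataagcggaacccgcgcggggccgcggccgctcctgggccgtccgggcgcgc
Acly, GRCr8 chr10:85963632-85963831, minus strand: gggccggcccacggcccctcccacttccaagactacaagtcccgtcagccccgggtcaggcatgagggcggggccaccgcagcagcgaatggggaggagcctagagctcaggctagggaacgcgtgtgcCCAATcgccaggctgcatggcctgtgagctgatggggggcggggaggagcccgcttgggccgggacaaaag
Scd, GRCr8 chr1:253231732-253231931, minus strand: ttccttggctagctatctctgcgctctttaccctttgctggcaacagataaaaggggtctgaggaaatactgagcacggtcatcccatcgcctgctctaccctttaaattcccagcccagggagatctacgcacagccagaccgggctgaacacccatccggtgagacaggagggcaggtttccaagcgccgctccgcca

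Mvk has 5 copies in this stretch, of which the 4 on the opposite strand begin 53 bases apart from one to the next. Msmo1 has 3, Hmgcs1 has 2, Insig1 and Acly have 1 each, and the stretch of Scd has none. These counts describe the letters and not the binding of a factor.

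A gene counts as detected where Agilent's flag for a signal well above background held for at least 1 of its probes on all 4 arrays. The arrays read 52.5% of named genes as detected. Levels are log2 processed signals relative to the 75th percentile that the array gives over detected probes, so 0 is a bright probe of that array. The 4 arrays had 19143 to 19311 of 45598 probes detected, and a detected gene had a median SD of 0.151. All 8 macrophage markers were detected, among them Csf1r, Cd68 and Spi1. None of 13 measured markers of epithelium, fibroblasts, T cells, B cells, adipocytes and hepatocytes was; Dcn, a fibroblast gene, was above background on 1 array. Values are from whole cultures, so fewer cells with a transcript and less of it per cell cannot be told apart. The number of arrays limits the precision.

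The sterol branch was read in full and the fatty acid branch was not. All 18 sterol genes and all 6 control genes were detected, as were 6 of 9 fatty acid genes, against the 52.5% of all named genes. Fasn, Scd and Fads1 were the 3 that no array read as well above background. Their processed signals stayed between 3.89 and 9.60, under the 16.6 to 20.1 that marked the lowest signal well above background on the 4 arrays. With 1 probe each, a probe that binds poorly and a transcript that is scarce cannot be told apart.

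Fasn, the fatty acid synthase that builds palmitate, had signals of 4.51, 9.60, 5.58 and 6.14 in replicates 1 to 4. Scd, a desaturase that turns saturated into monounsaturated fatty acids, had 4.29, 7.61, 4.75 and 4.78. Both were highest in replicate 2, still not well above the background of that array. Fads1, a desaturase of polyunsaturated fatty acids, had 6.70, 3.89, 4.27 and 6.10.

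The 6 detected fatty acid genes divided into well-measured and dim ones. Acly, the citrate lyase that supplies cytosolic acetyl-CoA to both branches, had signals of 9648 to 14674. Acss2, which makes acetyl-CoA from acetate, had 425 to 589. The other 4 had dim probes: Acaca, the acetyl-CoA carboxylase that commits carbon to fatty acids, at 62.8 to 157; the elongase gene Elovl5 at 49.6 to 82.2; the elongase gene Elovl6 at 36.9 to 55.8; and the desaturase gene Fads2 at 33.6 to 43.3. Elovl6 was the 1 gene whose probes disagreed: its other probe was above background on 0 arrays. Mean signals ran from 249.5 (Sc5d) to 8021 (Fdps) over the sterol genes and from 92.4 (Insig2) to 7625 (Srebf2) over the control genes. They describe how well each probe was read. Probes differ in how they bind, so these signals do not order the genes by transcript number.

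**Figure D1:**
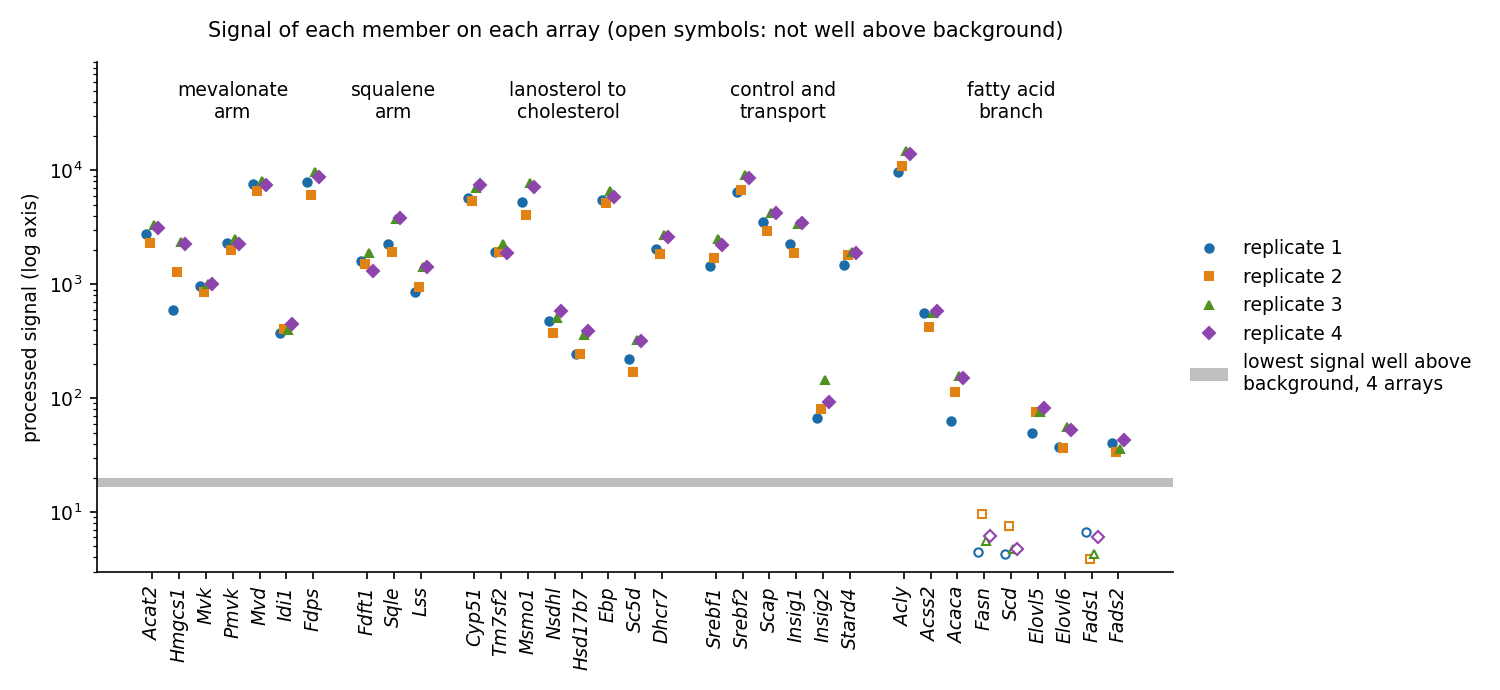
Processed signal (log axis) of the brightest probe of each of the 33 genes, with 1 symbol per replicate, grouped by role; open symbols were not well above background, and the grey band spans the lowest signal well above background on the 4 arrays, 16.6 to 20.1. All sterol and control genes lie above the band, while Fasn, Scd and Fads1 lie under it and Elovl5, Elovl6 and Fads2 just above it.

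Enzymes at the start of the sterol pathway varied little, with 1 exception. Acat2, which joins acetyl-CoA units, had levels of 0.50, 0.23, 0.40 and 0.39 in replicates 1 to 4, and all 4 of its probes were highest in replicate 1. Mvk, mevalonate kinase, had -1.03, -1.21, -1.31 and -1.26. Pmvk, the next kinase, was at 0.05 ± 0.13 (SD, n = 4), and Mvd, the decarboxylase that follows it, at 1.75 ± 0.14. These 4 genes were highest in replicate 1, and the brightest probe of each spanned at most 1.25-fold between its highest and its lowest array. The 2 dimmest probes of Acat2 spanned 1.74-fold and 1.56-fold. Fdps, farnesyl diphosphate synthase, had 2.01, 1.63, 1.96 and 1.87 and was lowest in replicate 2. Idi1, the isomerase before it, had -2.39, -2.27, -2.66 and -2.41; its other probe had -3.58, -3.17, -3.27 and -3.29. Both probes of Idi1 were highest in replicate 2 but were lowest on different arrays.

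Hmgcs1, the synthase that forms HMG-CoA, had the widest span of all members, 3.09-fold. Its levels were -1.71, -0.61, -0.09 and -0.09 in replicates 1 to 4, with a single spot per array. Replicate 1 was far below the rest, and replicate 2 below the other two. On the array of replicate 1, all 28 spots of other detected probes within 5 spots of it were below their own median on the other arrays, by a median of 0.75 on the log2 scale (a deviation of -0.75), while that of Hmgcs1 was -1.62. On the other arrays the median of these neighbours was 0.07, 0.02 and 0.11. Without replicate 1 the span of Hmgcs1 was 0.52 on the log2 scale, against 1.63 with it. The part of the dim area in the low value of replicate 1 was not tested.

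**Figure D2:**
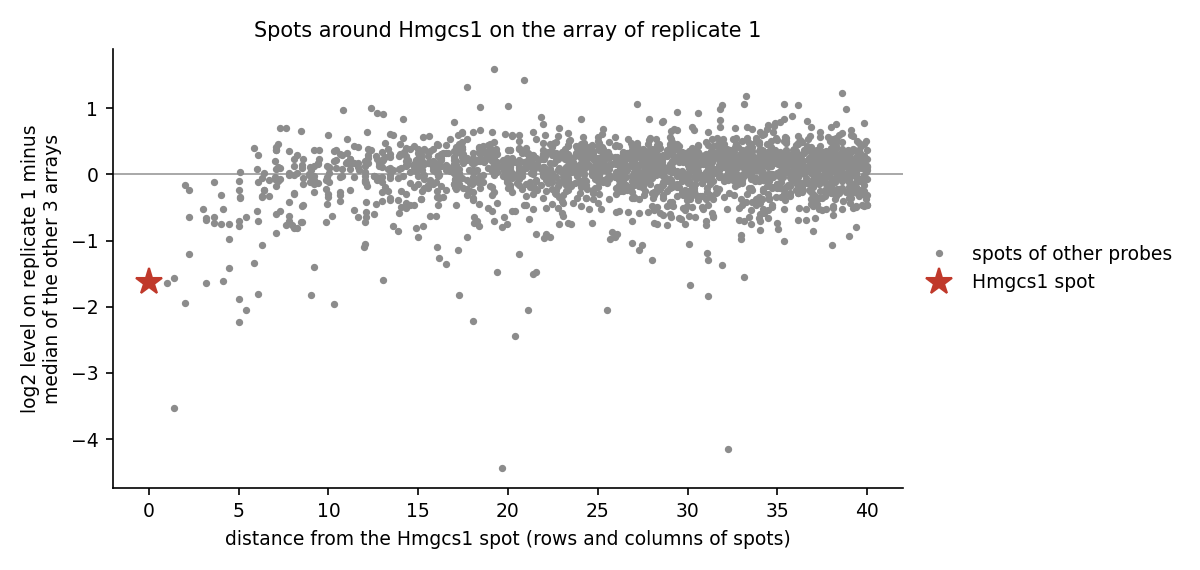
Each grey point is a spot of another probe well above background, by its distance from the Hmgcs1 spot (in rows and columns of spots) and its log2 level on the array of replicate 1 minus the median of the other 3 arrays; the star is Hmgcs1. The 28 spots within 5 spots of Hmgcs1 all lie under 0, with a median of -0.75, and most spots farther out, drawn to a distance of 40, scatter around 0.

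The squalene arm held one of the clearest differences between arrays. Sqle, the squalene epoxidase, a rate-limiting step of sterol synthesis, is printed 10 times on each array; 1 spot of replicate 1, at 0.43, carried an outlier flag and was left out. Its levels were 0.19, -0.03, 0.60 and 0.66 in replicates 1 to 4. The SD over spots within an array was 0.08 to 0.09. No spot kept of replicates 1 and 2, which reached at most 0.34, was as high as the lowest spot of replicates 3 and 4, at 0.48. The span was 1.62-fold. Lss, the lanosterol synthase, had -1.19, -1.05, -0.80 and -0.75, and its other probe gave -1.30, -1.11, -0.93 and -0.79, with the arrays in the same order. Fdft1, the squalene synthase, ran otherwise, with -0.31, -0.39, -0.39 and -0.88. Its only spot lay in the last column of the array. In replicate 4, spots in the outer 2 rows and columns that belong to probes printed at least 10 times were at a median of -0.10 from the median of their probe, with a lower quartile of -0.27, against 0 for inner spots. Fdft1 itself was at -0.48 from the median of the other arrays, and its 13 neighbours within 5 spots had a median of 0.06. The part of the edge in this value was not tested.

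Between lanosterol and cholesterol, replicate 2 was the lowest array for 6 of 8 genes by their brightest probes. For Hsd17b7 this was a near tie with replicate 1. Replicate 2 was lowest for 27.4% of all detected genes. Msmo1, a methyl oxidase that works on the sterol ring, had levels of 1.42, 1.03, 1.64 and 1.56. It is also printed 10 times, and its highest spot in replicate 2, at 1.24, was under the lowest spot of any other array, at 1.31. Sc5d, a sterol desaturase, had -3.16, -3.55, -2.93 and -2.91 from 1 spot, whose neighbours within 5 spots in replicate 2 had a median deviation of 0.00. Nsdhl, which helps remove methyl groups from the ring, had -2.04, -2.40, -2.29 and -2.03. Hsd17b7, a ketoreductase of the same step, had -3.01, -3.01, -2.79 and -2.62. Both of its probes were lowest in replicate 2 and highest in replicate 4. The brighter one was nearly tied between replicates 1 (-3.00931) and 2 (-3.00985). Cyp51, the lanosterol demethylase, was nearly level at 1.53 ± 0.07 (SD, n = 4), as were Dhcr7, the last reductase, at 0.04 ± 0.11, and Ebp, a sterol isomerase, at 1.38 ± 0.08. Cyp51 was lowest in replicate 2 by its brightest probe only. Its other probe had 0.38, 0.39, 0.43 and 0.31, lowest in replicate 4. The genes not lowest in replicate 2 were Ebp and Tm7sf2, a sterol reductase, which were both lowest in replicate 4. In that array the spot of Ebp in the last row was at 0.59 against a mean of 1.28 over its 10 spots. The same spot was at 1.16, 0.88 and 0.92 in replicates 1 to 3. Another spot of Ebp, in column 163 of 164, was at 0.87 in replicate 4 and at 1.35, 1.29 and 1.33 in replicates 1 to 3. The single spot of Tm7sf2, in row 382 of 384, was at -0.31 from the median of the other arrays. Its 19 neighbours within 5 spots had a median of -0.04. Nsdhl, lowest in replicate 2, had its spot in row 380, and its neighbours within 5 spots on that array had a median of 0.03. Rows 380 and 382 are not among the outer 2 rows counted as edge above. The part of the place on the array in these values was not tested.

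**Figure D3:**
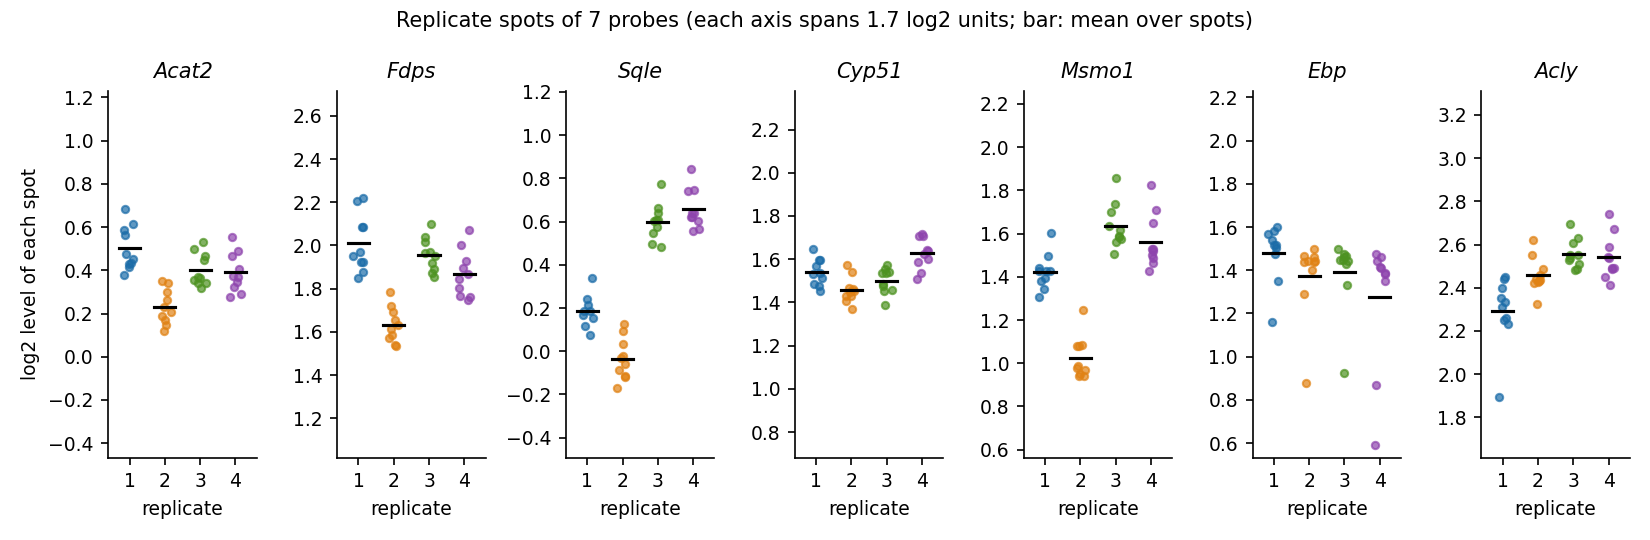
Log2 level of every spot without an outlier flag of the 7 genes printed 10 times per array, by replicate, with bars at the mean over spots and axes of equal length. Spots of Sqle and Msmo1 separate the arrays, with Msmo1 in replicate 2 (mean 1.03) under all other spots of Msmo1, while the spots of Cyp51 and of Ebp overlap between any 2 arrays.

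The repeated spots give the spread of spots within an array. Part of it kept to fixed places. The last-row spot of Ebp was the lowest of its 10 on every array, and 1 spot of Msmo1 was the highest on every array. Offsets shared by all arrays do not enter differences between arrays, so this spread is not the error of those differences. Over Acat2, Fdps, Sqle, Cyp51, Msmo1 and Acly the SD over spots was 0.06 to 0.16. Spots of Ebp spread wider, with 0.13 to 0.30, against an SD of 0.08 between replicates. For Sqle and Msmo1 the SD between replicates, 0.33 and 0.27, was larger than any of their SDs over spots. The same held more narrowly for Fdps (0.17 against at most 0.13) and Acat2 (0.11 against at most 0.10). For Cyp51 the values were nearly equal (0.0721 against at most 0.0715). For Acly the SD between replicates was smaller (0.12 against at most 0.16). The 0.16 was that of replicate 1, where 1 spot of Acly, in a dim area, was at 1.90. The other arrays had 0.07 to 0.10. SDs over spots are of single spots, while the SD between replicates is over means of 10 spots. The SE of these means was at most 0.02 for Cyp51, 0.05 for Acly and 0.09 for Ebp. Their SDs between replicates were 0.07, 0.12 and 0.08. Spots of 1 array share the same labelled RNA and are not replicates of the culture, and the SD between replicates holds labelling and hybridisation as well as culture.

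Of the control genes, the brighter probe of Insig1 ordered the arrays as Sqle did. Insig1, whose protein holds SCAP in the endoplasmic reticulum and which is itself a known SREBP target, had levels of 0.20, -0.06, 0.43 and 0.53. Its other probe had -1.08, -1.82, -1.21 and -0.90. Both probes were lowest in replicate 2 and highest in replicate 4, with spans of 1.51-fold and 1.90-fold. The messengers of the factors themselves were steadier. Srebf2 was at 1.79 ± 0.07 (SD, n = 4) and spanned 1.12-fold. Scap had 0.84, 0.57, 0.76 and 0.83 and was lowest in replicate 2. Srebf1 had -0.43, -0.21, 0.00 and -0.11, while its other probe was lowest in replicate 2, so its order depended on the probe. Insig2, the second retention protein, had -4.86, -4.62, -4.12 and -4.69 from a dim probe and was highest in replicate 3. Stard4, which carries cholesterol between membranes, had -0.41, -0.13, -0.39 and -0.36 and was highest in replicate 2.

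Fatty acid genes showed no common order. Acly had levels of 2.29, 2.46, 2.56 and 2.54, lowest in replicate 1. On that array 1 of its 10 spots, in the same dim area as the spot of Hmgcs1, was at 1.90. The part of this spot in the value of Acly was not tested. Acaca was also lowest in replicate 1, with -4.97, -4.12, -3.99 and -3.99 and a span of 1.98-fold. Its neighbours within 5 spots on that array had a median deviation of 0.06, against -0.98 for Acaca. The other probe of Acaca had -6.07, -6.01, -5.74 and -5.67, a span of 1.31-fold. Elovl5 had -5.31, -4.70, -5.04 and -4.87, and its other probe was lowest in replicate 3. Acss2 had -1.80, -2.22, -2.16 and -2.03 and was highest in replicate 1. Fads2 had -5.60, -5.88, -6.13 and -5.79 and was highest in replicate 1 as well, while Elovl6 was lowest in replicate 2, with -5.73, -5.74, -5.48 and -5.52. The other probe of Elovl6, not above background, had -8.59, -7.35, -7.55 and -7.44.

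**Figure D4:**
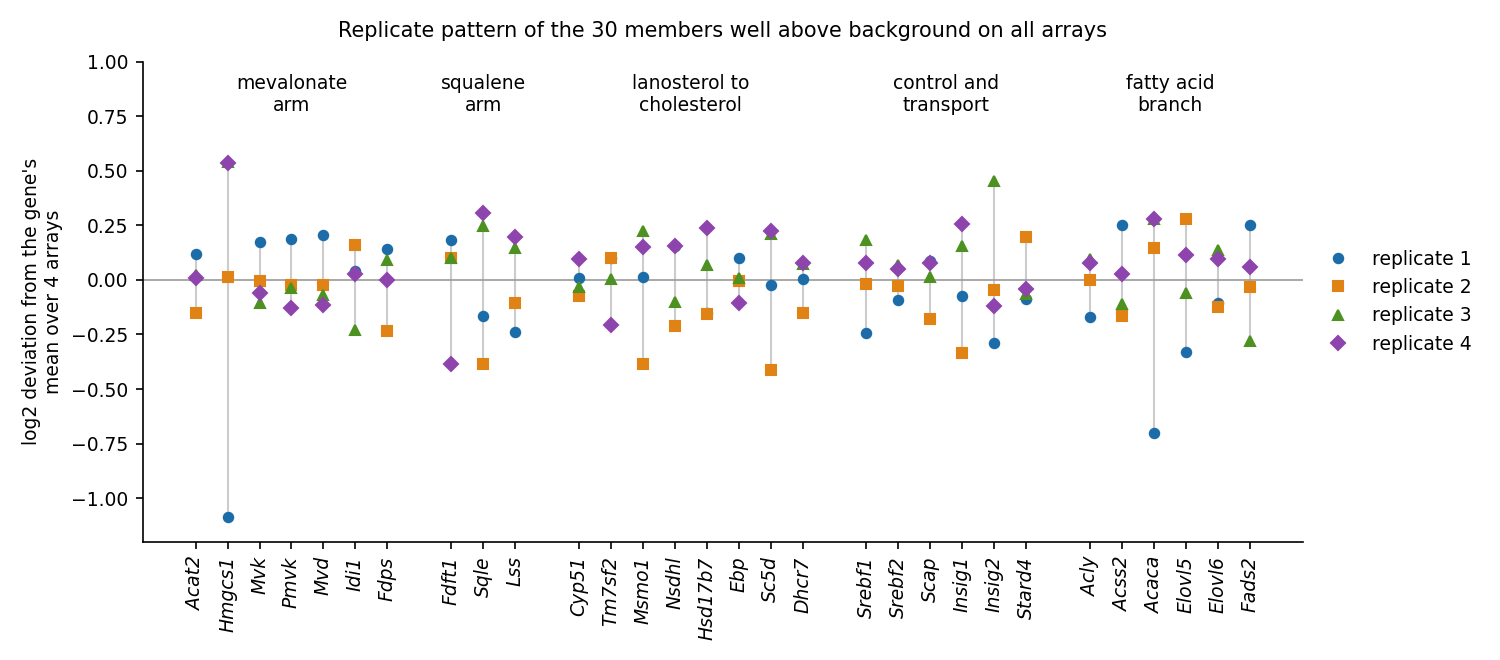
Log2 deviation of each of the 30 detected genes from its own mean over the 4 arrays, with 1 symbol per replicate and grey lines from the lowest to the highest array, grouped by role. Sqle, Msmo1, Sc5d and Insig1 share a low replicate 2, Hmgcs1 and Acaca have a low replicate 1, and Mvk, Pmvk and Mvd are highest in replicate 1.

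Counted over the branches, 8 of the 30 detected members (26.7%) spanned over 1.5-fold between arrays, against 17.2% of all detected genes. They were Hmgcs1, Sqle, Msmo1 and Sc5d of 18 sterol genes, Insig1 and Insig2 of 6 control genes, and Acaca and Elovl5 of 6 fatty acid genes. The median span was 1.29-fold over sterol genes, 1.28-fold over control genes and 1.39-fold over fatty acid genes, beside 1.26-fold over all detected genes. Without replicate 2 the count was 1 sterol gene, beside 10.7% of all genes, and without replicate 1 it was 0 fatty acid genes, beside 8.72% of all genes. With normexp background correction it was 0 control and 0 fatty acid genes, and the share of all genes fell as well, to 6.47%.

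Of the 30 detected members, 9, 13, 3 and 5 were lowest in replicates 1 to 4, against 28.5%, 27.4%, 20.4% and 23.7% of all detected genes. Highest were 11, 3, 8 and 8, against 34.6%, 24.8%, 15.9% and 24.7%. Among sterol genes 9 of 18 were lowest in replicate 2, Hsd17b7 among them by a near tie, and 8 were highest in replicate 1 and 7 in replicate 4.

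The branches differed in which array was low, by amounts too small to test with 4 arrays. The median deviation over sterol genes was 0.07, -0.09, 0.05 and 0.05 in replicates 1 to 4, and over fatty acid genes -0.14, -0.02, 0.02 and 0.09. For the 4 arrays the difference, sterol minus fatty acid, came to 0.21, -0.07, 0.03 and -0.04. Its value for replicate 1 was 0.03 with normexp, where the fatty acid median was 0.02, and 0.12 with means over genes in place of medians. The normexp values start from the median spot signal, so signal and correction changed together. Within the sterol branch the arms differed too. The mevalonate arm was highest in replicate 1 (0.14), with 5 of 7 genes highest there against 34.6% of all detected genes. The genes from lanosterol to cholesterol were lowest in replicate 2 (-0.15). With scaling to the median of all probes, which moved the median of all genes between arrays by 0.28, replicate 2 was lowest for 7 of these 8 genes and for 59.4% of all genes, and replicate 1 was highest for 3 of 7 mevalonate genes and for 18.6% of all genes. Relative to the median of all genes, the low replicate 2 from lanosterol to cholesterol was -0.14. Scaling to another percentile or to the median of all probes shifts all genes of an array alike, so it cannot change this value. It was -0.13 with quantile normalization, -0.17 with normexp and -0.15 with the mean over detected probes. The high replicate 1 of the mevalonate arm was 0.13, and 0.11, 0.07 and 0.15 with these changes, in the same order.

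**Figure D5:**
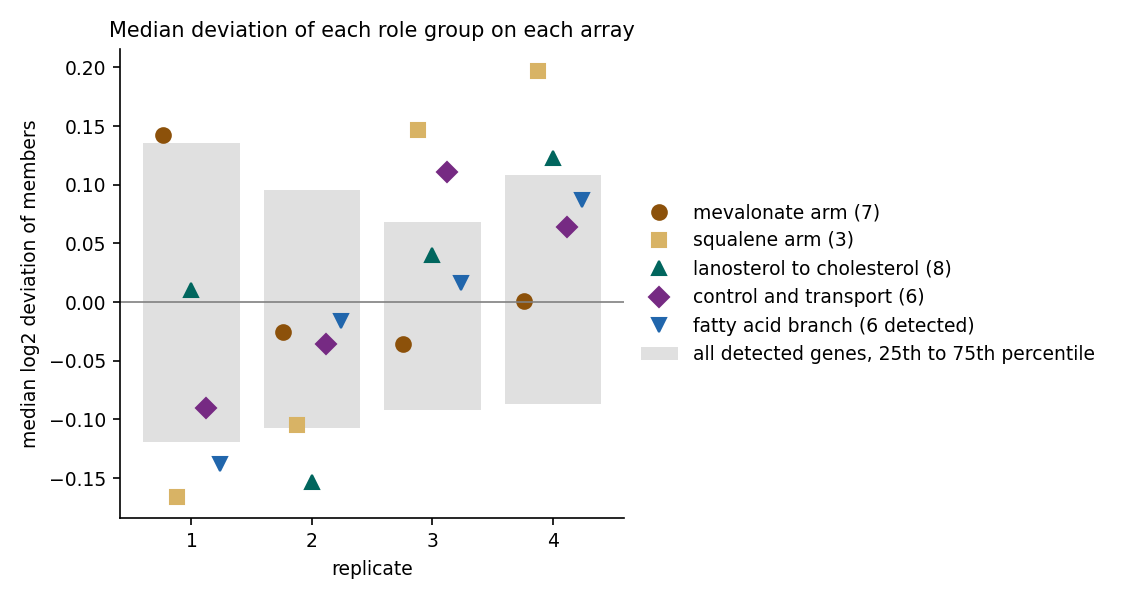
Median log2 deviation of the detected genes of each role group on each array, with the number of genes in brackets; grey bars span the 25th to 75th percentile of all 8713 detected genes. The mevalonate arm is highest in replicate 1 (0.14) and the genes from lanosterol to cholesterol are lowest in replicate 2 (-0.15).

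In a test of each gene's variance between replicates against that expected at its brightness (limma, F test on residual variances, Benjamini-Hochberg over 8713 genes), 0 members passed at 0.05, as did 1 gene in all (0.0115%). At an unadjusted p under 0.05 there were 3 of 30 members (10%), all of the sterol branch, and 4.30% of all genes. The members were Hmgcs1 (SD 5.79 times the expected one, adjusted p = 0.351, limma F test), Sqle (2.75 times, adjusted p = 0.969, limma F test) and Msmo1 (2.37 times, adjusted p = 0.969, limma F test). The spot of Hmgcs1 in replicate 1 lay in a dim area, and its part in this SD was not tested. Without replicate 1 the lowest adjusted p of any member was 0.928 (limma F test). With 4 arrays this test calls only very large differences, so an uncalled gene may still vary.

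Neighbouring pathways were read beside the members. Replicate 2 was the lowest array for 5 of 9 detected genes of fatty acid supply and elongation. The same held for 4 of 10 of the isoprenoid branch and for 0 of 6 that sense sterols or process SREBPs. Over all detected genes the share was 27.4%. Replicate 1 was the highest for 4 of 8 macrophage markers, against 34.6% of all detected genes, with a median deviation of 0.10. Of 10 measured genes that use farnesyl diphosphate for other isoprenoids, all 10 were detected, and their median span was 1.11-fold; Pggt1b, a subunit of a prenyl transferase, had the largest SD (0.37) at a dim level of -6.29. Of 8 measured genes that sense sterols or process SREBPs, 6 were detected and none spanned over 1.5-fold. Rnf139, a ubiquitin ligase, had the largest SD of those (0.26). Mbtps2, the protease that makes the second cut in SREBPs, and Rnf145 were above background on 0 arrays, while Mbtps1, which makes the first, was at 0.48 ± 0.02 (SD, n = 4). Of 13 genes that supply or elongate fatty acids, 9 were detected. Acacb, Elovl7 and Hacd2 were above background on 0 arrays and Mid1ip1 on 2. Tecr and Hsd17b12, which act in the elongation cycle, were at 1.90 ± 0.03 and 1.74 ± 0.08. Acsl4, an acyl-CoA ligase, had the largest SD of the detected ones (0.29).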

How the data were processed

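Total RNA (100 ng per sample, RNA integrity above 7.5) was labelled with Cy3 and hybridised to 1-colour Agilent rat arrays, per the labels' protocols. The deposited intensity is the background-corrected processed signal as deposited, made with Agilent Feature Extraction 11.0.1.1 (version from the submitters' processing notes); any normalization the authors made between arrays was not given in the sources used here. Control spots and spots with outlier flags were left out, spots of a probe were averaged as log2 signals, and a gene took its brightest probe, detected ones first. Of all probes, 39.3% were detected on 4 arrays, so levels were scaled to the 75th percentile of these. Probes were named by RefSeq accession (GRCr8 table; the files use another build). Dim areas were blocks, of 12 by 10 per array, where at least 5 spots and 5% of detected spots lay 1 log2 unit below the other arrays; replicate 1 had 3 and replicate 4 had 1. Variances were tested by limma 3.58.1 (R 4.3.3) after an intercept-only model, following a check on simulated data; figures used matplotlib 3.10.9. Values on every array are given for undetected members, the 3 with the largest SD per role and those whose probes disagreed, and also for further members chosen after their values were seen; of the neighbouring pathways, Mbtps1, Tecr and Hsd17b12 were named in this way too. The members and lists were chosen with earlier results of these data known. Alternatives were other detection rules, scalings, normexp (offset 50) on the median spot signal, probe choices, branch assignments, variance models and leaving out dim areas or each replicate.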

Additional observations from a re-analysis of the deposited data

Results flagged for a closer look

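Of 36 sets of 4 values (the levels of the 30 detected genes and 6 list medians), 4 had 1 array standing apart: its gap to the nearest array, divided by the whole range, passed Dixon's 95% limit for 4 values, where chance gives about 1.8 (1 in 20). Acaca was low in replicate 1 (ratio 0.861), at -4.97, from 1 spot with a signal of 62.8. Its other, dimmer probe had -6.07, -6.01, -5.74 and -5.67 in replicates 1 to 4. That probe was also lowest in replicate 1, but replicate 2 lay close to it. Fdft1 was low in replicate 4 (ratio 0.852), at -0.88, from a spot in the last column of the array. Stard4 was high in replicate 2 (ratio 0.837), at -0.13. Its other, dim probe had -5.39, -5.30, -5.89 and -5.43 in replicates 1 to 4. That probe was also highest in replicate 2, but its replicate 3 lay farthest from the rest. The median of the sterol branch was low in replicate 2 (ratio 0.842), at -0.09 against 0.07, 0.05 and 0.05.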

How the results depend on the processing

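No paired analysis was possible because all samples form 1 group. Counts of detected members stayed at 18, 6 and 6 (sterol, control, fatty acid) under every alternative run except 17 sterol genes without dim areas, where the spot of Hmgcs1 is lost, and the branch assignment with Insig1 and Stard4 as sterol genes, which moved these to 20 and 4. No member was called in the variance test under any alternative (lowest adjusted p from 0.0656 to 0.968, limma F test). Genes called in all numbered 0 to 11. Counts spanning over 1.5-fold moved most. For sterol genes it was 8 with the median over all probes (4 in the report), where the share of all genes rose from 17.2% to 27.5%. For control genes it was 1 with the positive and significant flag, with the 75th percentile over all probes and with Insig1 and Stard4 moved, and 0 with normexp. For fatty acid genes it was 1 with the 75th percentile over all probes, quantile normalization and the mean over probes, 0 with normexp, and 5 of 9 with no filter on dim probes. Leaving out 1 replicate gave 1 to 4 sterol, 0 to 1 control and 0 to 2 fatty acid genes. The range over arrays of the branch median was 0.160 for sterol, 0.201 for control and 0.225 for fatty acid genes; with the median over all probes it was 0.414, 0.427 and 0.406, with normexp 0.0954 for fatty acid genes, and with Insig1 and Stard4 moved 0.294 for control genes. Leaving out 1 replicate gave 0.0616 to 0.192, 0.161 to 0.230 and 0.121 to 0.221. The sterol minus fatty acid difference in replicate 1 was 0.0340 with normexp and 0.122 with means over members (0.209 in the report). The cause of these changes was not tested. The dim probes of Acaca, Elovl5, Elovl6, Fads2 and Insig2 (mean signals 38.1 to 114) lie nearest to background and limit what was read of these genes.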
